A study of Mus musculus with 6 samples.

Results

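The genes of the unfolded protein response (UPR) and the chaperones of the endoplasmic reticulum (ER) were examined in N9 microglia, an immortalized cell line from mouse brain, after stimulation with lipopolysaccharide (LPS), a glycolipid from the surface of gram-negative bacteria that innate immune cells detect. The members were chosen by name: 36 genes that encode ER chaperones, oxidoreductases of the ER, proteins of ER-associated degradation, the stress sensors with their transcription factors, targets of the PERK branch and a subunit of the translocon. All 36 names were found among the 54532 genes of the count table, on 37 rows, because Ddit3 has a second row at which no read was counted in any library. After a filter on low counts 35 members were among the 12296 genes tested. Derl3 did not pass it. Its control libraries had 5, 12 and 0 reads, and its LPS libraries had 4, 4 and 9.

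RNA-seq was performed on 3 libraries of N9 cells that had received 1 µg/ml LPS over 6 h and on 3 libraries of untreated control cells, all grown in the same RPMI medium with serum. N9 is a single immortalized line, and neither the labels nor the methods say that the libraries of a group came from separate cultures, so the p-values measure the spread between these libraries, which may be technical. The question here was whether the ER folding machinery and each branch of the UPR changed in mRNA level between LPS-stimulated and control cells.

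The ER folds the proteins that a cell secretes or places in its membranes, with the help of chaperones, enzymes that form disulfide bonds, and a degradation route for proteins that fail to fold. When unfolded proteins build up, the sensors IRE1α (encoded by Ern1), ATF6 and PERK (encoded by Eif2ak3) are activated: IRE1α splices the mRNA of Xbp1, ATF6 is cleaved to a transcription factor that induces chaperone genes, and PERK phosphorylates eIF2α, which slows translation and favours the translation of ATF4. Microglia stimulated with LPS secrete cytokines and chemokines made in the ER. Sensor activation, Xbp1 splicing and eIF2α phosphorylation take place on protein or by splicing, and counts per gene do not measure them.

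The libraries held between 16363767 and 17956772 counts. The markers of microglia and macrophages were present, with 11 of 15 listed genes tested and a summed level of 2216 to 2282 CPM (counts per 1000000 reads of the scaled library) in control and 2398 to 2458 CPM in LPS libraries. Sall1, P2ry12, Fcrls and Aif1, which define microglia in the brain, were at 0 to 12 counts per library. Of 14 hepatocyte markers, counts were summed to 320 and 527 in control replicates 2 and 3 but to between 3 and 9 in the other libraries, and 6 goblet cell and epithelial markers were summed to 220 in control replicate 2 and 133 in LPS replicate 3 but to between 3 and 6 elsewhere. The 7 markers of plasma cells, whose ER is greatly enlarged, were summed to 148 to 170 CPM in control and 401 to 416 CPM in LPS libraries. Nearly all of this was Sdc1 (log2FC 1.39), Ighm was at 5 to 27 counts and lower with LPS (log2FC -1.30), and Jchain, Mzb1, Igkc, Tnfrsf17 and Cd79a were at 0 to 3 counts. The astrocyte, neuron and oligodendrocyte markers were summed to 21.7 to 39.8 CPM in control and 16.6 to 29.5 CPM in LPS libraries, lower with LPS in each list, but each sum was carried by 1 gene (Aldh1l1, Map2 and Mbp) and the other genes were at 0 to 18 counts. The 4 fibroblast markers were summed to 139, 7 and 116 counts in control replicates 1, 2 and 3, and to 85, 13 and 13 counts with LPS. The highest of these sums was that of control replicate 1. The part of these marker genes in the results was not tested. In bulk RNA, a difference in level per cell and a difference in the share of cells that express a gene cannot be told apart.

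Changes in the members were small and, with TMM scaling, went in both directions. At an adjusted p under 0.05 in edgeR's quasi-likelihood test (Benjamini-Hochberg adjustment over all genes tested), 8 of the 35 tested members (22.9%) were up-regulated, beside 18.7% of all genes tested, and 9 (25.7%) were down-regulated, beside 15.7% of all genes tested. The up-regulated members were Ppp1r15a, Chac1, Dnajb9, Ero1l, Ppp1r15b, Atf4, Sec61b and Hspa5. The down-regulated members were Herpud1, Eif2ak3, Sdf2l1, Dnajc3, Edem1, Pdia4, Sel1l, Atf6 and Dnajb11. The log2 fold changes (log2FC) of the members lay between -0.35 and 0.52, with a median of -0.03 beside 0.00 for all genes. The balance depended on scaling, with 2 up and 11 down by upper-quartile factors, beside 15% and 20.3% of all genes, and 1 up and 21 down by library totals alone, beside 12.4% and 27.2%.

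By the thresholds of the study for a differentially expressed gene, an absolute log2FC over 1.5 and an adjusted p under 0.05, the count of members was 0, beside 2.65% of all genes tested. It was also 0 with DESeq2 and at an unadjusted p under 0.05, since no member had a change of that size. In 9 members every LPS library lay above every control library, beside 23.8% of all genes tested, and in 11 every LPS library lay below, beside 21.5%. The members were counted deeply, with a median of 2171 counts per library, and a small change is called more readily in such genes: of the 1817 tested genes with at least that mean count, 33.7% were up-regulated and 16.4% down-regulated, with a median log2FC of 0.06. The member shares of 22.9% up-regulated and 25.7% down-regulated cover all 35 tested members, also those with fewer counts than this. Members at that depth were not counted apart, so the shares are not matched for depth, and the difference was given no test.

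**Figure D1:**
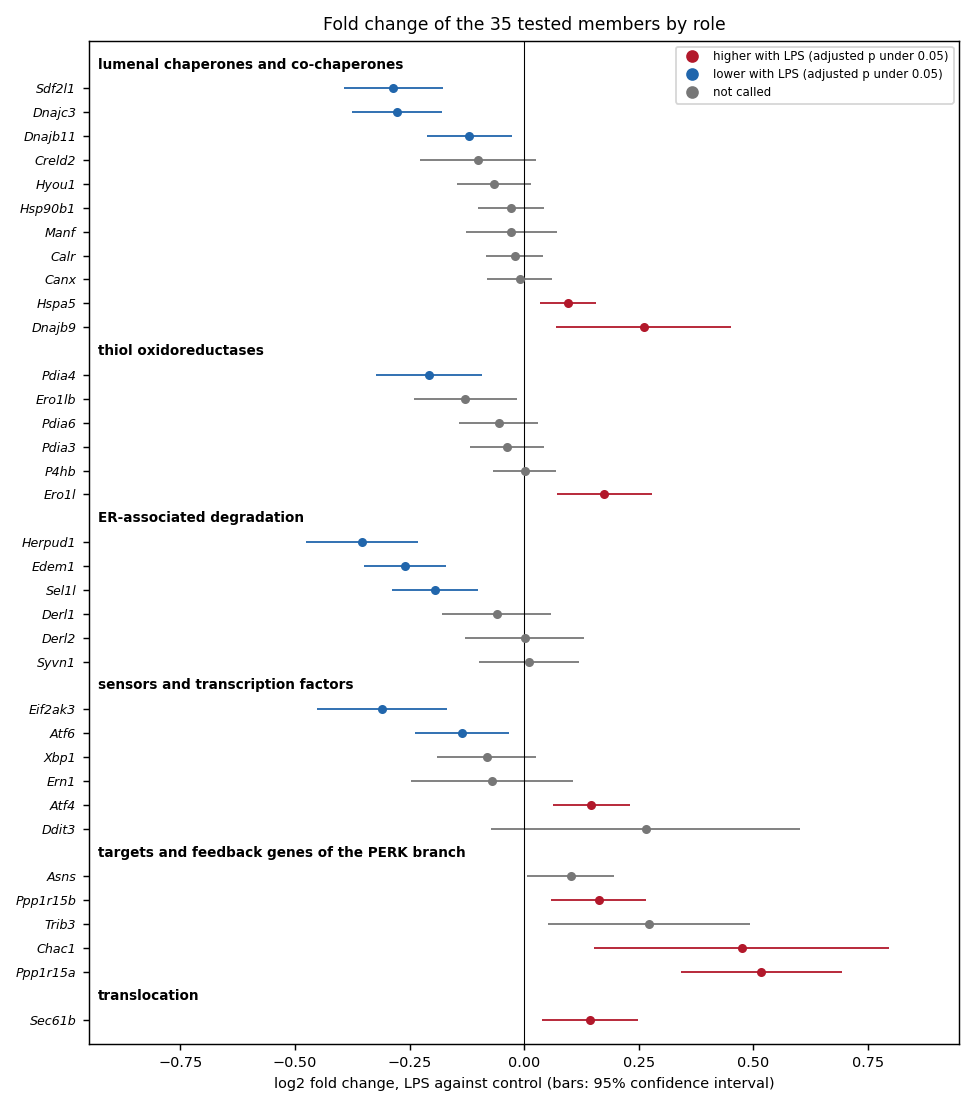
Log2 fold change (horizontal axis, LPS against control, 3 libraries each) of the 35 tested members, grouped by role, with bars for the 95% confidence interval. Colour marks the 8 members called higher, the 9 called lower and the 18 not called. The members of ER-associated degradation lie at or below about 0, and all 5 targets and feedback genes of the PERK branch lie above 0.

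**Figure D2:**
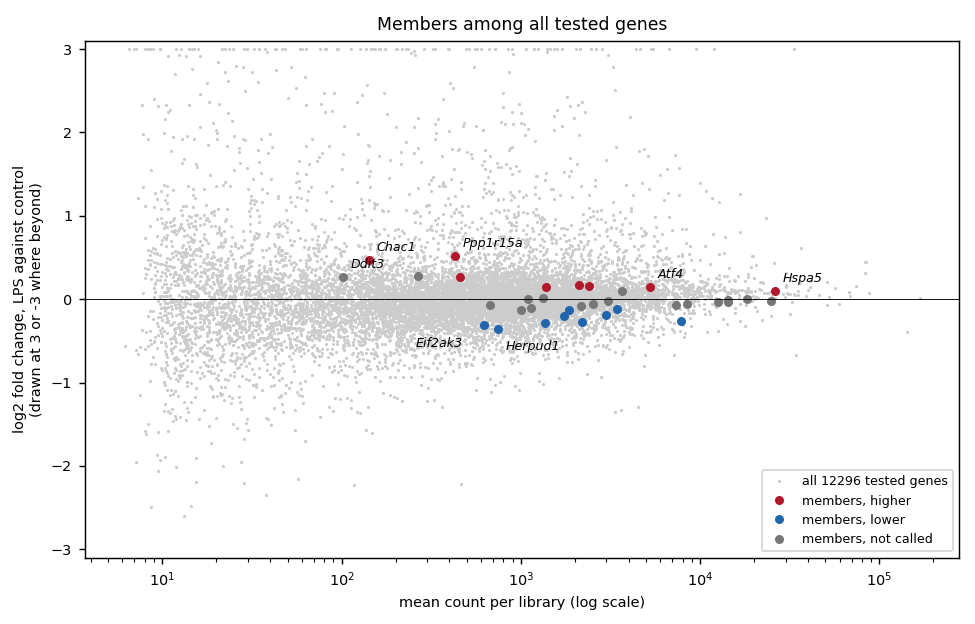
Log2 fold change (vertical axis, drawn at 3 or -3 where beyond) against mean count per library (horizontal axis, log scale) for all 12296 tested genes in grey and the 35 tested members in colour. Every member lies within -0.35 and 0.52, inside the band of the other genes at the same depth.

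Although their changes were small, the members take a visible part of the transcriptome. Together they held 1.08% to 1.1% of all counts in the control libraries and 0.995% to 1.02% in the LPS libraries. On the scale normalized by TMM (the trimmed mean of M-values), the summed member level was 10424 to 10642 CPM in control and 10257 to 10571 CPM in LPS libraries, and these ranges overlap. Per kilobase of gene length as deposited, the highest mean control levels were those of Calr (509 CPM per kb), P4hb (376), Hspa5 (353) and Pdia3 (270), which are chaperones and oxidoreductases of the ER lumen. The sensors Atf6, Eif2ak3 and Ern1 stood at 12.4, 6.70 and 4.95 CPM per kb, between which lay the lumenal members Dnajb9 (9.63) and Ero1lb (9.22). Ddit3 stood at 3.20 and Derl3 at 0.162 CPM per kb.

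Induction of ER chaperone genes by ATF6 and spliced XBP1 is known to run through the ER stress response element (ERSE), and induction of amino acid and stress genes by ATF4 through the C/EBP-ATF response element (CARE). Promoter windows of 300 bases, from 250 before to 50 after the start, were available from RefSeq on GRCm38.p6 for 29 of the 36 members. They were searched on both strands for the ERSE, written as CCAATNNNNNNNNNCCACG, for the ERSE-II, written as ATTGGNCCACG, for the UPR element (UPRE), written as TGACGTGG, and for the CARE, written as TGATGNAA. The ERSE, the ERSE-II and the reverse complement of the UPRE share the letters CCACG, and an ERSE-II can overlap a neighbouring ERSE through the CCAAT box that both contain. The ERSE was present in 9 of the 29 members (Calr, Canx, Creld2, Derl3, Dnajc3, Hsp90b1, Hspa5, Pdia6 and Syvn1), against 0.119% of 32851 windows. The ERSE-II was present in 2 (Dnajb11 and Herpud1), against 0.0365% of windows, the CARE in 4 (Asns, Chac1, Herpud1 and Trib3), against 3.97%, and the UPRE in 0, against 0.676%. Such elements are already known from genes of these kinds, so the shares describe the windows and are not a test.

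The following stretches show the elements of members that fell (Herpud1 and Dnajc3), rose slightly (Hspa5) or were not called (Calr), and the CARE of Chac1 and Asns. Each is written 5′ to 3′ on the strand of the gene, with the fixed letters of the element in capitals, and up to 25 bases are shown on either side of the elements.
Herpud1: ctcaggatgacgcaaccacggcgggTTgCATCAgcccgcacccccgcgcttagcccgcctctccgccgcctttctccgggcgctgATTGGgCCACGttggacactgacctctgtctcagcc
Dnajc3: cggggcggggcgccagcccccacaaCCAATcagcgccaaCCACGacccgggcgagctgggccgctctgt
Hspa5: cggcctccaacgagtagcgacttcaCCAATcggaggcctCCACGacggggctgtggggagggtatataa
Calr: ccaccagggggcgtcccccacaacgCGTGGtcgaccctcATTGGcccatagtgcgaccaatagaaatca
Chac1: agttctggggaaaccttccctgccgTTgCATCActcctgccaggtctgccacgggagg
Asns: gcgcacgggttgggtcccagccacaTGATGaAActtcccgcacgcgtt

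These stretches lie upstream of the RefSeq starts, on GRCm38.p6. By the gene coordinates of the count table, which differ, the stretch of Hspa5 and most of that of Asns lie inside the gene. The positions are chr8:94386292-94386412 on the plus strand for Herpud1, chr14:118937802-118937870 on the plus strand for Dnajc3 and chr2:34772000-34772068 on the plus strand for Hspa5. Those of Calr, Chac1 and Asns are chr8:84847050-84847118 on the minus strand, chr2:119351024-119351081 on the plus strand and chr6:7693210-7693257 on the minus strand. In Herpud1 the first capitals are a CARE in reverse orientation and the second an ERSE-II, and in Calr the ERSE is reversed. Of the 10 tested members with an ERSE or ERSE-II, 1 was up-regulated and 3 were down-regulated, with a median log2FC of -0.04. Of the 18 tested members with a window but without either element, 5 were up-regulated and 5 down-regulated, with a median of 0.00. Over all genes tested, 18.7% were up-regulated and 15.7% down-regulated.

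Among the lumenal chaperones and co-chaperones, 2 of 11 members (18.2%) were up-regulated and 3 (27.3%) down-regulated, beside 18.7% and 15.7% of all genes tested, with a median log2FC of -0.03. Hspa5 encodes BiP, the main HSP70 chaperone of the ER lumen and a standard reporter of ER stress. It stood at 1516, 1496 and 1472 CPM in control replicates 1, 2 and 3, and at 1634, 1584 and 1575 CPM in LPS replicates 1, 2 and 3. The groups did not overlap, but the difference of 6.87% was small (log2FC 0.10 ± 0.028 SE, edgeR adjusted p = 0.0173), and it was -0.0024 on the log2 scale when libraries were scaled by their total counts alone. The Hspa5 call was also lost without control replicate 3 (adjusted p = 0.121, against a range of 0.0109 to 0.955 over the alternative fits).

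The J-domain co-chaperones of BiP did not move together. Dnajb9 encodes ERdj4, which brings BiP to IRE1α, and stood at 22.2, 27.5 and 23.9 CPM in control and at 30.3, 30.3 and 27.7 CPM in LPS libraries. The lowest LPS library lay just above the highest control library, and the difference of 19.8% (log2FC 0.26 ± 0.089 SE, edgeR adjusted p = 0.0356) was called in 10 of 17 alternative fits. It was lost without control replicate 1 or 3 or LPS replicate 1 or 2, with adjusted p between 0.0957 and 0.144. Dnajc3 encodes p58IPK, a co-chaperone of BiP that was first described as an inhibitor of PKR, and stood at 137, 142 and 141 CPM in control and at 114, 112 and 120 CPM in LPS libraries. This decrease of 17.5% (log2FC -0.28 ± 0.046 SE, edgeR adjusted p = 2.51e-04) was called in all 17 alternative fits. Dnajb11, which encodes ERdj3, stood at 217, 208 and 207 CPM in control and at 197, 196 and 190 CPM in LPS libraries (log2FC -0.12 ± 0.043 SE, edgeR adjusted p = 0.0448). The groups of Dnajb11 did not overlap, but it was not called when any 1 of the 6 libraries was left out (adjusted p between 0.0531 and 0.147).

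Sdf2l1, which encodes a partner of ERdj3 in the ER lumen, stood at 90.6, 83.6 and 88.1 CPM in control and at 74.3, 69.6 and 71.3 CPM in LPS libraries. The groups were clearly apart, with a decrease (log2FC -0.29 ± 0.05 SE, edgeR adjusted p = 4.42e-04) that was called in all 17 alternative fits. The other 6 chaperone members were not called. Hsp90b1 (the HSP90 of the ER), Calr and Canx (the lectin chaperones calreticulin and calnexin) had log2FC of -0.03, -0.02 and -0.01. With TMM scaling, their 95% confidence intervals ran from -6.78% to 2.98%, from -5.58% to 2.90% and from -5.39% to 4.34%. Changes of more than about 7% in either direction lay outside these intervals. With library totals alone, these genes were called lower (log2FC -0.13, -0.12 and -0.11, edgeR adjusted p = 0.00658, 0.00358 and 0.0153). Hyou1 (a nucleotide exchange factor of BiP), Manf (a secreted ER stress protein) and Creld2 had log2FC of -0.07, -0.03 and -0.10, and every LPS library of Hyou1 was below every control library. Manf overlaps Rbm15b on the same strand and Dcaf1 on the other, with mean counts of 774 and 550.

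The thiol oxidoreductases, which form and rearrange disulfide bonds, were mostly level. Of 6 members, 1 was up-regulated and 1 down-regulated (16.7% each, beside 18.7% and 15.7% of all genes tested), with a median log2FC of -0.05. Pdia4, a protein disulfide isomerase also known as ERp72, stood at 116, 109 and 101 CPM in control and at 96.9, 93.9 and 92.0 CPM in LPS libraries. It fell by 13.4% (log2FC -0.21 ± 0.054 SE, edgeR adjusted p = 0.00755), and of 17 alternative fits only the one without control replicate 2 and LPS replicate 3 lost the call (adjusted p = 0.0635, the highest of a range that starts at 3.66e-04). Ero1l encodes ERO1α, the oxidase that recharges the disulfide isomerases, and stood at 114, 124 and 113 CPM in control and at 132, 130 and 134 CPM in LPS libraries. It rose by 12.9% (log2FC 0.18 ± 0.048 SE, edgeR adjusted p = 0.0107), and its groups did not overlap, but the call was lost without control replicate 3 (adjusted p = 0.09), with upper-quartile factors (log2FC 0.13, adjusted p = 0.0508) and with library totals alone (log2FC 0.08, adjusted p = 0.222).

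The related oxidase gene Ero1lb, which encodes ERO1β, lay on the other side, at 60.7, 61.3 and 62.1 CPM in control and at 54.5, 55.7 and 58.2 CPM in LPS libraries, a log2FC of -0.13 that was not called (edgeR adjusted p = 0.0734). No LPS library of Ero1lb reached the lowest control library. Ero1lb was called lower with upper-quartile factors (log2FC -0.18, edgeR adjusted p = 0.016) and with library totals alone (log2FC -0.23, edgeR adjusted p = 0.00328). The isomerases P4hb, Pdia3 and Pdia6 had log2FC of 0.00, -0.04 and -0.06 and were not called. For P4hb, the second most abundant member per kilobase in control libraries, the 95% confidence interval ran from -4.54% to 4.99% with TMM scaling. With library totals alone P4hb, Pdia3 and Pdia6 were called lower (log2FC -0.10, -0.14 and -0.15, edgeR adjusted p = 0.0237, 0.00924 and 0.00631).

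ER-associated degradation, which returns misfolded proteins to the cytosol for the proteasome, held the member with the largest decrease. Of its 6 tested members 3 were down-regulated and 0 up-regulated in edgeR, beside 15.7% and 18.7% of all genes tested, and the median log2FC was -0.13. These numbers were the same at an unadjusted p under 0.05, where 22.6% of all genes tested were higher and 20.2% lower, and with DESeq2. Herpud1 encodes an ER membrane protein that organizes the HRD1 ubiquitin ligase complex and is a well-known target of ER stress. It stood at 49.2, 48.5 and 49.3 CPM in control replicates and at 38.5, 38.4 and 38.1 CPM in LPS replicates. The libraries of each group were nearly the same and far from those of the other group, with a decrease of 21.7% (log2FC -0.35 ± 0.057 SE, edgeR adjusted p = 2.08e-04). Both the ERSE-II and the CARE printed above stand before this gene.

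Edem1 encodes a lectin that hands misfolded glycoproteins to degradation and is a classical target of spliced XBP1. Its level was 483, 501 and 517 CPM in control and 423, 430 and 400 CPM in LPS libraries, a decrease of 16.5% (log2FC -0.26 ± 0.042 SE, edgeR adjusted p = 1.98e-04). Sel1l, the adaptor of the HRD1 ligase, stood at 185, 188 and 189 CPM in control and at 158, 165 and 169 CPM in LPS libraries, a decrease of 12.6% (log2FC -0.19 ± 0.044 SE, edgeR adjusted p = 0.00301). In neither gene did the groups overlap. Herpud1 and Edem1 were called in all 17 alternative fits, whereas the calls of Sel1l and Eif2ak3 were lost when control replicates 2 and 3, the libraries with hepatocyte markers, were both left out (log2FC -0.17 and -0.22, adjusted p = 0.0831 and 0.127). That fit sets 1 control library against 3 LPS libraries, so its spread between libraries comes from the LPS group alone. The remaining members, Syvn1 (the HRD1 ligase itself), Derl1 and Derl2, had log2FC of 0.01, -0.06 and 0.00 and were not called. Syvn1 and Derl2 overlap the genes Mrpl49 and Mis12 on the opposite strand, with mean counts of 953 and 760, and the use of strand in counting is not given in the sources used here.

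**Figure D3:**
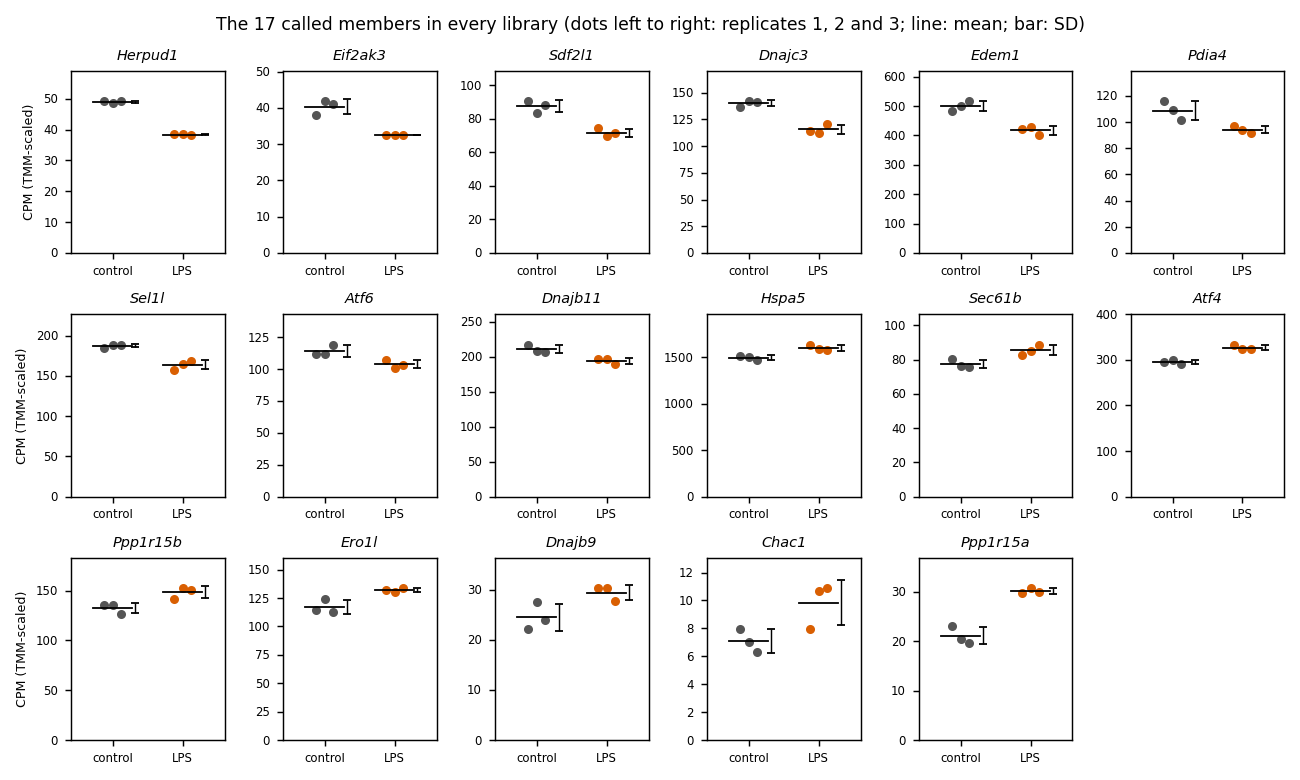
Level of the 17 called members in each library, in TMM-scaled CPM on axes that start at 0, with control in grey and LPS in orange. Dots from left to right are replicates 1, 2 and 3, the line is the mean and the bar the SD (n = 3). In Herpud1 the 3 LPS libraries sit between 38.1 and 38.5 CPM, all below the control libraries, while in Chac1 the groups overlap.

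The sensors and transcription factors were examined gene by gene. Eif2ak3, which encodes PERK, stood at 38.0, 41.9 and 41.1 CPM in control and at 32.6, 32.4 and 32.6 CPM in LPS libraries. All LPS libraries were below all control libraries, and Eif2ak3 fell by 19.4% (log2FC -0.31 ± 0.066 SE, edgeR adjusted p = 0.00204). Atf6 stood at 112, 112 and 119 CPM in control and at 107, 101 and 103 CPM in LPS libraries. The decrease of 8.99% in Atf6 was small (log2FC -0.14 ± 0.048 SE, edgeR adjusted p = 0.0399), and it was called in 11 of 17 alternative fits. Without control replicate 3, LPS replicate 2 or LPS replicate 3 the adjusted p of Atf6 was 0.172, 0.150 or 0.100.

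Ern1, which encodes IRE1α, was at 41.9, 40.7 and 38.7 CPM in control and at 33.4, 42.7 and 39.2 CPM in LPS libraries, with overlapping groups and a log2FC of -0.07 (edgeR adjusted p = 0.56). Xbp1 was at 134, 130 and 129 CPM in control and at 131, 125 and 116 CPM in LPS libraries, with overlapping groups and a log2FC of -0.08 (edgeR adjusted p = 0.24). The 95% confidence intervals ran from -15.8% to 7.65% for Ern1 and from -12.4% to 1.86% for Xbp1. With TMM scaling, total Xbp1 mRNA was therefore not found to change, and its spliced form was not measured. With library totals alone, Xbp1 was called lower (log2FC -0.18, edgeR adjusted p = 0.0101).

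Atf4, the transcription factor whose translation PERK favours, stood at 296, 301 and 290 CPM in control and at 334, 323 and 325 CPM in LPS libraries. Its groups did not overlap, and it rose by 10.7% (log2FC 0.15 ± 0.04 SE, edgeR adjusted p = 0.00955). The Atf4 call was lost without control replicate 3 (adjusted p = 0.0733), with upper-quartile factors (0.0720), without the hepatocyte-marked libraries (0.0990) and with library totals alone (log2FC 0.05, adjusted p = 0.349). Ddit3, which encodes CHOP and promotes cell death in prolonged ER stress, was at 4.61, 5.55 and 6.29 CPM in control and at 6.90, 6.70 and 6.20 CPM in LPS libraries. The groups of Ddit3 overlapped, and the log2FC of 0.26 was not called (edgeR adjusted p = 0.221), with a 95% confidence interval from -4.86% to 51.8%. Ddit3 was counted at a mean of 102.5 per library, and it overlaps Mars, with a mean of 3296 counts, on the opposite strand. Of the 6 sensors and transcription factors, 1 (16.7%) was thus up-regulated and 2 (33.3%) were down-regulated, beside 18.7% and 15.7% of all genes tested, with a median log2FC of -0.08.

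The targets and feedback genes of the PERK branch had the highest median of the groups with more than 1 member, a log2FC of 0.27. The list is named for PERK, but other kinases also phosphorylate eIF2α, so these genes do not single out PERK. The part of each kinase was not tested. Of 5 members 3 were up-regulated and 0 down-regulated in edgeR, beside 18.7% and 15.7% of all genes tested, and at an unadjusted p under 0.05 all 5 were higher and 0 lower, beside 22.6% and 20.2% of all genes tested. With DESeq2 at an adjusted p under 0.05, 2 were higher and 0 lower, beside 14.2% and 11.6% of all genes. Ppp1r15a encodes GADD34, the inducible subunit of the phosphatase that removes the phosphate from eIF2α. It stood at 23.0, 20.5 and 19.7 CPM in control replicates and at 29.8, 30.7 and 29.9 CPM in LPS replicates. The groups were well separated, and this was the largest change of any member, an increase of 43.1% (log2FC 0.52 ± 0.082 SE, edgeR adjusted p = 1.68e-04). Ppp1r15a was the only up-regulated member called in all 17 alternative fits.

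Ppp1r15b encodes CReP, the constitutive counterpart of GADD34, and stood at 136, 135 and 127 CPM in control and at 142, 153 and 151 CPM in LPS libraries. The groups did not overlap, and the increase of 11.9% (log2FC 0.16 ± 0.048 SE, edgeR adjusted p = 0.017) was called in 10 of 17 alternative fits, with adjusted p of 0.126, 0.0762 and 0.0606 without control replicate 3, LPS replicate 2 and LPS replicate 3. Chac1, which encodes a glutathione-degrading enzyme and is a target of ATF4, stood at 7.99, 7.02 and 6.29 CPM in control and at 7.98, 10.7 and 10.9 CPM in LPS libraries. LPS replicate 1 lay at the level of control replicate 1, so the groups overlapped, although the increase of 38.9% was called (log2FC 0.47 ± 0.15 SE, edgeR adjusted p = 0.0241). The call of Chac1 was lost with DESeq2 (adjusted p = 0.0636, against a range of 0.00584 to 0.351 over the alternative fits) and without control replicate 2 or 3 or LPS replicate 2 or 3 (adjusted p between 0.0592 and 0.111).

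The other ATF4 targets were higher in every LPS library than in any control library but were not called. Trib3, a pseudokinase gene induced by ATF4 and CHOP, was at 15.1, 14.8 and 12.9 CPM in control and at 16.2, 18.6 and 16.8 CPM in LPS libraries (log2FC 0.27, edgeR adjusted p = 0.0532). Asns, which encodes asparagine synthetase, was at 212, 199 and 213 CPM in control and at 223, 221 and 226 CPM in LPS libraries (log2FC 0.10, edgeR adjusted p = 0.0933). Asns, Trib3 and Chac1 have a CARE in their windows, and the window of Ppp1r15a holds no match to these letters. Sec61b, a subunit of the translocon through which proteins enter the ER, stood at 80.3, 76.3 and 75.9 CPM in control and at 83.0, 84.9 and 88.8 CPM in LPS libraries. It rose by 10.4% without overlap of the groups (log2FC 0.14 ± 0.049 SE, edgeR adjusted p = 0.0353), but was called in 7 of 17 alternative fits, and not without control replicate 2 or 3 or LPS replicate 2 or 3 (adjusted p between 0.0782 and 0.151).

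Leaving out a library moved the number of up-regulated members more than that of down-regulated members. Without control replicate 3 the number of up-regulated members was 1 in place of 8, beside 14.7% of all genes tested in that fit. Without LPS replicate 2 it was 4, beside 15.4%, and without LPS replicate 3 it was 5, beside 16%, while the number of down-regulated members stayed between 7 and 8 when any single library was left out, beside 12.4% to 15.4% of all genes. With both hepatocyte-marked control libraries left out, which leaves 1 control library that is assumed to vary like the LPS libraries, 3 members were up-regulated and 5 down-regulated, beside 13% and 8.89% of all genes. In that fit Hspa5, Atf4, Ppp1r15b, Chac1 and Sec61b were no longer called (log2FC 0.08, 0.15, 0.13, 0.30 and 0.09, adjusted p = 0.19, 0.0990, 0.222, 0.351 and 0.394), nor were Atf6 and Dnajb11 (log2FC -0.10 and -0.16, adjusted p = 0.328 and 0.0900). Without the libraries with goblet cell markers (control replicate 2 and LPS replicate 3), which leaves 2 libraries in each group, the numbers were 4 and 6, beside 15% and 11.4% of all genes. There Hspa5, Ppp1r15b, Chac1, Sec61b, Atf6 and Dnajb11 were not called (log2FC 0.11, 0.16, 0.39, 0.10, -0.15 and -0.11, adjusted p = 0.0522, 0.0712, 0.156, 0.257, 0.0987 and 0.177), nor was Pdia4, as given above. With upper-quartile factors and library totals alone, whose counts are given above, the median of all genes moved to -0.04 and -0.09 on the log2 scale. Under these scalings the log2FC of Dnajb9 was 0.21 and 0.16, that of Ppp1r15b 0.11 and 0.06, and that of Sec61b 0.09 and 0.05, none of them called (adjusted p between 0.0769 and 0.503), and Hspa5 was not called in either. The members called in all 17 alternative fits were Dnajc3, Edem1, Herpud1 and Sdf2l1, which fell, and Ppp1r15a, which rose. The part of the marker counts in these differences was not tested beyond leaving the libraries out.

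**Figure D4:**
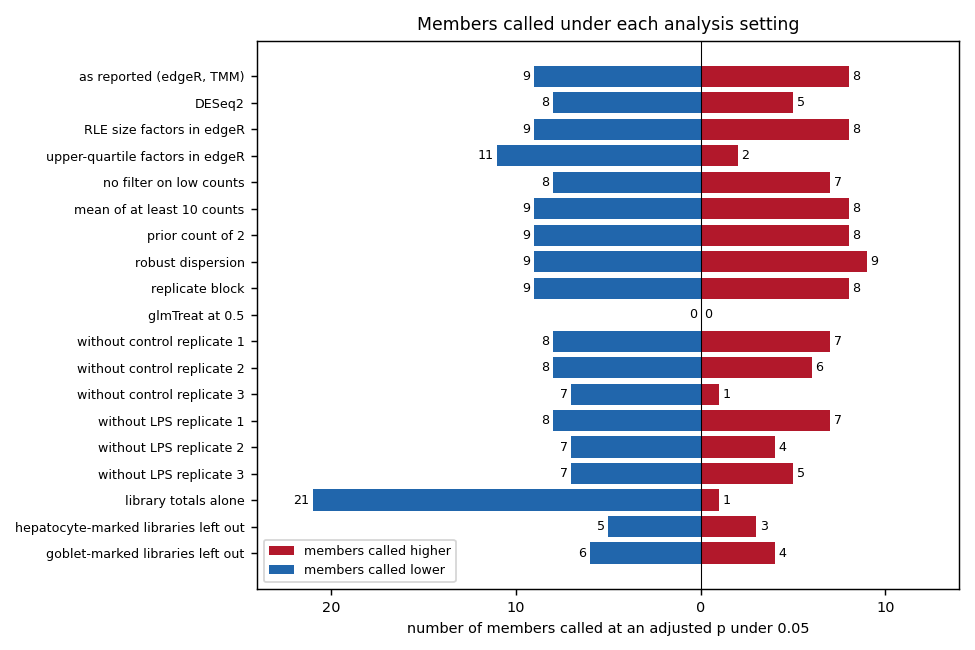
Number of the 35 tested members called at an adjusted p under 0.05 in each analysis setting, with up-regulated members to the right of 0 and down-regulated members to the left. The down-regulated count is 9 as reported and stays between 5 and 11 except with library totals alone (21) and in a test against a log2FC of 0.5 (0), while the up-regulated count ranges from 0 to 9.

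For the neighbourhood of the members, 129 further genes of ER proteostasis were listed, and most of them passed the filter. Of those tested, 27 (22%) were up-regulated and 18 (14.6%) down-regulated, with a median log2FC of 0.02, beside the 18.7% and 15.7% of all genes tested. The balance depended on scaling, with 18 up and 27 down by upper-quartile factors and 16 up and 43 down by library totals alone. By function, 6 of 17 further sensors and regulators were up-regulated and 2 down-regulated, 2 of 30 folding genes up and 6 down, 5 of 18 degradation genes up and 2 down, 5 of 26 translocation genes up and 4 down, and 9 of 32 further ATF4 targets up and 4 down. The folding genes had a median log2FC of -0.07 and the ATF4 targets one of 0.07.

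Of these further genes, 2 passed the thresholds for a differentially expressed gene, beside 2.65% of all genes tested. Slc7a11, the cystine transporter and an ATF4 target, rose from 38.0 ± 3.33 to 190.0 ± 6.40 CPM (SD, n = 3; log2FC 2.32, edgeR adjusted p = 3.40e-13). Eif2ak2, which encodes the eIF2α kinase PKR and is also an interferon-induced gene, rose from 61.1 ± 3.24 to 187.9 ± 9.05 CPM (SD, n = 3; log2FC 1.62, edgeR adjusted p = 5.15e-12). Of the other eIF2α kinase genes, the member Eif2ak3 was lower as given above, Eif2ak4 was lower (log2FC -0.25, edgeR adjusted p = 0.0104) and Eif2ak1 was not called (log2FC -0.02), so that Eif2ak2 was the only kinase gene of these that rose. The next largest increases were those of Cebpb, Atf3 and Wfs1 (log2FC 0.98, 0.89 and 0.83), of which Cebpb and Atf3 encode transcription factors that are also induced by inflammatory signals. The largest decreases were those of Dnajb14, Creb3l1, Txndc12, Cnpy4 and Tmx3 (log2FC -0.64, -0.49, -0.32, -0.31 and -0.26), of which Txndc12 and Tmx3 encode thioredoxin-like proteins of the ER. The Cnpy4 call was lost with DESeq2 (adjusted p = 0.0597), without control replicate 3, LPS replicate 1 or LPS replicate 3 (0.136, 0.0693 and 0.0761) and without the hepatocyte-marked libraries (0.12), within a range that starts at 0.00508. The Tmx3 call was lost without the goblet-marked libraries (edgeR adjusted p = 0.0546) and without the hepatocyte-marked libraries, which leaves 1 control library. Over the 17 alternative fits the log2FC of Tmx3 lay between -0.35 and -0.20, and that of Cnpy4 between -0.41 and -0.22.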

How the data were processed

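RNA-seq of N9 microglia was used, with 3 control and 3 LPS libraries, grouped by their labels. The authors deposited a count table, with whole-number counts of reads per gene and no normalization. The submitters' processing notes name featureCounts 1.5.0-p3 and the genome build mm10. The aligner and the use of strand are not given in the sources used here, which affects overlapping genes. A further table with the authors' DESeq2 comparison (fold changes and p-values) and 18 columns of values per sample was not used.

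The members and the gene lists were chosen with earlier results of these data known. Counts were fitted in edgeR 4.0.16 (R 4.3.3) with TMM normalization, filterByExpr and the quasi-likelihood test on all 12296 genes, with a prior count of 0.125 and Benjamini-Hochberg adjustment. CPM are counts per 1000000 reads of the TMM-scaled library. The SE is the log2FC divided by the square root of F. Values per library were planned for members with an adjusted p under 0.05 and an absolute log2FC over 0.5 and for the 6 sensors and transcription factors. Their extension to all called members and to Ero1lb, Trib3 and Asns was chosen after the values were seen. From the wider list, the 5 called genes per direction with the largest change and a mean of at least 50 counts were named.

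The depth of 16363767 to 17956772 counts makes 3 counts equal to 0.161 to 0.19 CPM. No molecular identifiers are mentioned, so such limits cover counting error only. Libraries of the same group were not copies of each other (chi-square per gene between 3.47 and 7.35). The fit was tested on simulated counts for this comparison, with the same dispersion for every gene. It recovered 97 of 100 genes changed by a log2FC of 0.5 and 100 of 100 changed by 1, with 9 false calls among 12313 genes. Smaller changes were not simulated. All called members except Ppp1r15a changed by less than 0.5, so the simulation does not show how reliably changes of their size are called. Alternatives were DESeq2 1.42.0, other size factors, filters, prior count and dispersion, a replicate block, glmTreat at 0.5 and each library left out. Library totals alone and the marker-based omission of libraries were added after the data were seen. A count of 17 alternative fits covers all of these except glmTreat. Exact permutation of 3 against 3 libraries cannot go below p = 0.1 and was not used. Promoter windows came from RefSeq (GRCm38.p6), and Hyou1, Manf, Ero1l, Ero1lb, Derl1, Atf6 and Ppp1r15b had none. Figures used matplotlib 3.10.9.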

Additional observations from a re-analysis of the deposited data

How the results depend on the processing

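As reported, 8 members were up-regulated and 9 down-regulated. The number up-regulated was 5 with DESeq2, 2 with upper-quartile factors, 0 in a test against a log2FC of 0.5 (glmTreat), 1 with library totals alone, 3 without the hepatocyte-marked libraries (control replicates 2 and 3, leaving 1 control library, assumed to vary like the LPS libraries) and 4 without the goblet-marked libraries (control replicate 2 and LPS replicate 3). With 1 library left out it ranged from 1 (without control replicate 3) to 7, with 4 without LPS replicate 2 and 5 without LPS replicate 3. The number down-regulated was 0 with glmTreat, 21 with library totals alone and 5 without the hepatocyte-marked libraries, and from 7 to 8 with 1 library left out. Among the further ER genes, glmTreat gave 7 up and 0 down, library totals alone 16 up and 43 down, and the fit without hepatocyte-marked libraries 10 down. With library totals alone the log2FC of Hspa5 was -0.0024 and that of P4hb -0.10, both below 0 in place of above. P4hb was called lower there (edgeR adjusted p = 0.0237) and Hspa5 was not called (0.955). Calls of lower were also gained there by Calr, Canx, Creld2, Derl1, Ero1lb, Hsp90b1, Hyou1, Manf, Pdia3, Pdia6 and Xbp1. All genes had a median of -0.09 in that fit, with 12.4% higher and 27.2% lower. Ero1lb and Hyou1 were also called lower with upper-quartile factors, and Trib3 was called higher with robust dispersion. With upper-quartile factors 15% of all genes were higher and 20.3% lower. Of all genes tested, 14.2% were higher and 11.6% lower with DESeq2, 5.16% and 1.25% with glmTreat, 13% and 8.89% without the hepatocyte-marked libraries, 15% and 11.4% without the goblet-marked libraries, and 14.7% to 17.2% and 12.4% to 15.4% with 1 library left out. The cause of these shifts was not tested.

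With a replicate block, 8 members were up-regulated and 9 down-regulated, as without it, beside 20% and 16.4% of all genes tested. The further genes gave 29 up and 20 down in that fit. The labels do not say that a number marks a shared culture, and the same-numbered libraries had correlations of 0.131, 0.0484 and 0.00491, so the numbers were not taken as pairs. Control replicate 2 correlated best with LPS replicate 3 (0.0772). Of all values recomputed, 768 kept their direction and their side of the threshold (or, for counts, stayed within 1.5 times). A change of sign without a call was seen in 27 values of 5 members (Canx, Derl2, Ern1, P4hb and Syvn1, at most 0.0968 from 0). A further 2 values were reversed, those of Hspa5 (call lost) and P4hb (called lower) with library totals alone. Another 90 values lost and 14 gained a call, and 17 counts moved further. Depth limited Derl3 above all, at a mean of 5.67 counts.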
